A study of Sus scrofa with 80 samples.

Results

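The genes described here are the drug, bile and ABC transporters of the Göttingen minipig, a small pig breed used in drug safety testing. They were chosen by name alone: every gene on the array whose symbol starts with SLC22A, SLC47A, SLC15A, SLC10A, with SLCO and a digit, or with ABCA to ABCG and a digit, other than SLC22A6 and SLC22A8. The rule found 67 of the 23722 genes measured. Total RNA was hybridised to one-colour custom arrays from liver, kidney, spleen, bone marrow, cerebellum, hypothalamus and cerebral cortex, with 1 female and 1 male for each tissue at 1 week, 4 weeks, 2 months and 4 months, which gave 56 samples in 8 combinations of age and sex. A 2-year male added 1 sample of each of these tissues, and there were 5 single testes, at all 5 ages, and 4 single ovaries, at the 4 younger ages. The animals were untreated and came from one breeder. The 2-year male was moved to another site and another feed within its first months, was killed with another pentobarbital product and had its arrays on slides of its own, so its age, slide and husbandry cannot be told apart. The labels do not say which tissues came from the same animal, so samples of one age and sex may share an animal, and p-values measure only the spread between these samples.

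Transporters move drugs, bile acids, organic ions, peptides and lipids across cell membranes. The solute carriers (SLC and SLCO) mostly bring their substrates into cells along a gradient or with an ion. The ABC proteins burn ATP to push substrates out of the cell or into an organelle. In liver, hepatocytes take up bile acids and drugs from blood and pass them into bile through ABC pumps of the canalicular membrane. In kidney, cells of the proximal tubule carry organic cations, anions and urate between blood and urine.

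Levels are given as log2 intensities after background correction and quantile normalization, with each gene averaged over its probes. The level of one gene can be compared between samples, but not with that of another gene. The detection limit, the 95th percentile of the negative control spots of an array, lay between 2.29 and 3.39 on this scale. Of the 67 transporters 32 were above it in all 72 tissue samples and all 67 were above it in at least 1. In the scanner software's own test 65 were well above background in at least 1 sample, and ABCA8 and ABCD4 in none. The tissues had the markers of their labels: the mean level of 8 hepatocyte genes was 11.36 to 11.64 in the livers up to 4 months and at most 5.63 in other tissues of these ages, and that of the proximal tubule genes was 8.72 to 9.80 in kidney and at most 5.99 in the others. The bone marrow of the 2-year male stood apart, with a mean of 3.73 over 6 erythroid genes against 8.41 to 9.58 in the other bone marrow samples. Because these are whole tissues, fewer cells of a type and less RNA per cell cannot be told apart in any comparison below.

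The transporters differed in how far their levels varied between tissues. The difference between the highest and lowest tissue mean had a median of 2.36 log2 units over the 67 genes, was over 4 units for 18 of them and under 1 unit for 20. Liver had the highest mean for 21 transporters, cerebellum for 12, kidney and bone marrow for 8 each, spleen and cortex for 7 each and hypothalamus for 4. In liver 11 transporters were higher in all 8 samples than in any of the other 48 samples, in kidney 4, in cerebellum 1, SLC22A15, and in cortex 1, SLCO1C1. None of the counts in this paragraph was made over all genes, so they do not set the transporters apart from other genes.

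**Figure D1:**
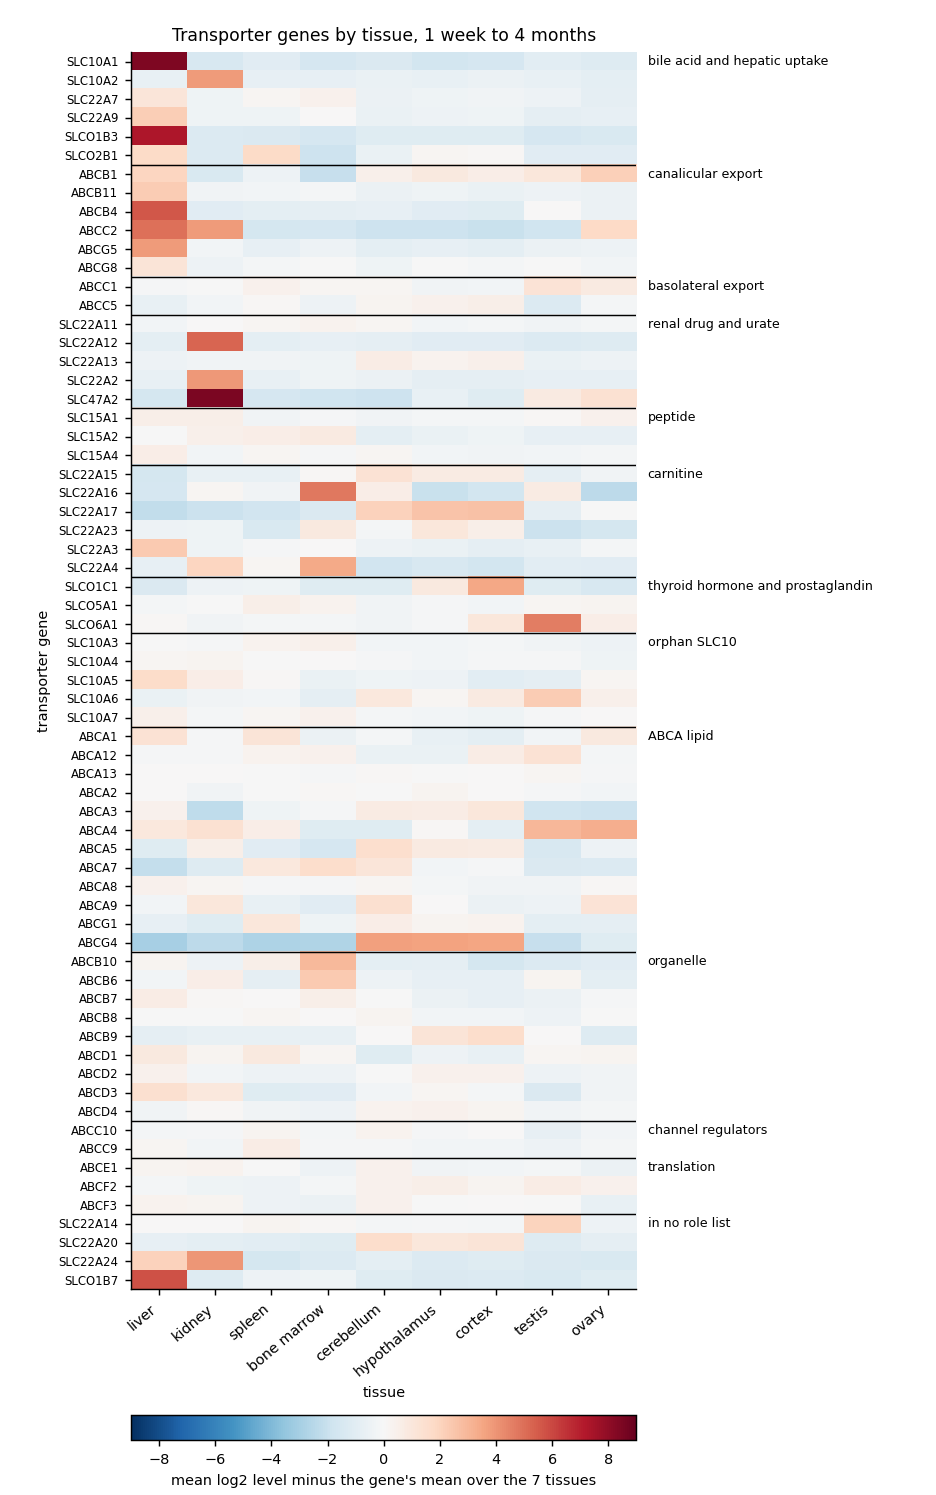
Tissue map of the transporters, grouped by role. Each row is a gene, each column a tissue (testis and ovary included), and colour gives the tissue mean up to 4 months minus the gene's mean over the 7 tissues sampled in both sexes in log2 units, so that rows are not compared in level. The dark red cells include SLC10A1 in liver (mean 12.02) and SLC47A2 in kidney (mean 13.97), and ABCG4 is red in the 3 brain columns (means 8.98 to 9.15).

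To find where each transporter was enriched, every tissue was compared with the mean of the 6 others in a limma fit over the 56 samples. In these comparisons the other tissues, or elsewhere, are those among the 7 tissues up to 4 months, and testis, ovary and the 2-year male are left out unless they are named. A transporter was called when it was at least 4-fold higher at an adjusted p under 0.05. In liver 12 of the 67 transporters were called, against 4.58% of all genes, and the median difference was 0.08 over the transporters and -0.05 over all genes. The called genes held 5 of the 6 canalicular exporters found by the name rule (ABCB1, ABCB4, ABCB11, ABCC2 and ABCG5). They also held 4 of the 7 genes so found for bile acid and hepatic uptake (among them SLC10A1, SLCO1B3 and SLC22A9). ABCG2, also a canalicular exporter, is on the array outside the name rule and is given in the closing section. The remaining called genes were SLCO1B7, SLC22A3 and SLC22A24.

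SLC10A1, the sodium-dependent carrier that takes up bile acids from portal blood, ranged from 11.56 to 12.38 in the 8 livers, with a median of 12.08. It was not well above background in any sample of the other 6 tissues, where the highest level was 3.04. All livers lay far above these samples. The difference was 9.84 log2 units (SE 0.10, adjusted p = 7.8e-53), and as the other tissues give only a bound, liver was at least 518-fold higher. Such bounds set the mean of the bright tissue against the lowest signal that counted as well above background on the other arrays, or the gene's own signal where that was higher. SLCO1B3, an organic anion transporter that carries statins and bilirubin conjugates into hepatocytes, lay between 10.20 and 11.14 in liver (median 10.49) and at no more than 2.70 elsewhere. Its level was at least 195-fold higher in liver (adjusted p = 1.6e-42). SLCO1B7, a relative of the same family, lay between 9.95 and 10.64 in liver (median 10.35) and between 2.76 and 4.67 elsewhere, a 103-fold difference (6.68 log2 units, SE 0.12, adjusted p = 1.1e-41).

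The canalicular pumps separated liver from other tissues to different degrees. ABCB4, which moves phosphatidylcholine into bile, lay between 7.08 and 9.76 in liver (median 8.86) and at no more than 2.84 elsewhere, so that liver was at least 59.5-fold higher (adjusted p = 1.9e-36). ABCC2, the export pump for bilirubin glucuronide and other conjugates, lay between 8.89 and 9.86 in liver and between 7.62 and 8.48 in kidney. In the other 5 of the 7 tissues its mean was between 2.25 and 2.76, while ovaries reached 7.56. It was called in liver (5.82, SE 0.10, adjusted p = 5e-43) and in kidney (4.43, SE 0.10, adjusted p = 1.4e-37). ABCG5, which with ABCG8 forms the sterol exporter of bile, lay between 6.54 and 7.60 in liver and between 1.64 and 3.20 elsewhere (4.47 log2 units, SE 0.13, adjusted p = 2.1e-33). It was well above background in 8 of 8 livers and in 1 of the 48 other samples, so the difference is set mostly against background signal. Its partner ABCG8 differed by 1.37 log2 units (adjusted p = 3.7e-12), with samples between 4.30 and 6.49 in liver, and stayed under the 4-fold limit. ABCB11, the bile salt export pump, lay between 3.74 and 5.55 in liver (median 5.21) and at no more than 3.09 elsewhere, at least 3.69-fold higher in liver (adjusted p = 1.9e-22). The average hides a split between its probes, since one read 7.79 in liver and the other 2.04, near background in all tissues.

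ABCB1, P-glycoprotein, was present in every tissue. Its level was 8.57 to 9.70 in liver (median 9.44) and 4.15 to 8.36 in the other 6 tissues up to 4 months. Outside these 7 tissues it was 8.38 to 10.05 in the ovaries, of which 2 exceeded every liver, and 7.47 to 8.64 in the testes. Its liver mean was 2.27 log2 units above that of the other 6 tissues (SE 0.19, adjusted p = 9.6e-15). Among these 6 the brain regions came next, with means of 8.21 in hypothalamus, 7.89 in cortex and 7.75 in cerebellum, and bone marrow was lowest at 5.27. SLC22A9, an organic anion transporter, was 5.83-fold higher in liver and SLC22A3, an organic cation transporter, 6.62-fold. SLCO2B1, a broad organic anion transporter, differed by 2.00 log2 units in liver (adjusted p = 1.6e-18), just under the fold limit, and SLC22A7, an organic anion transporter, by 1.23. SLCO2B1 was called in liver in 4 of the 8 fits that left out one age and sex, those without the males of 1 week, the females of 4 weeks, the females of 2 months or the males of 4 months.

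**Figure D2:**
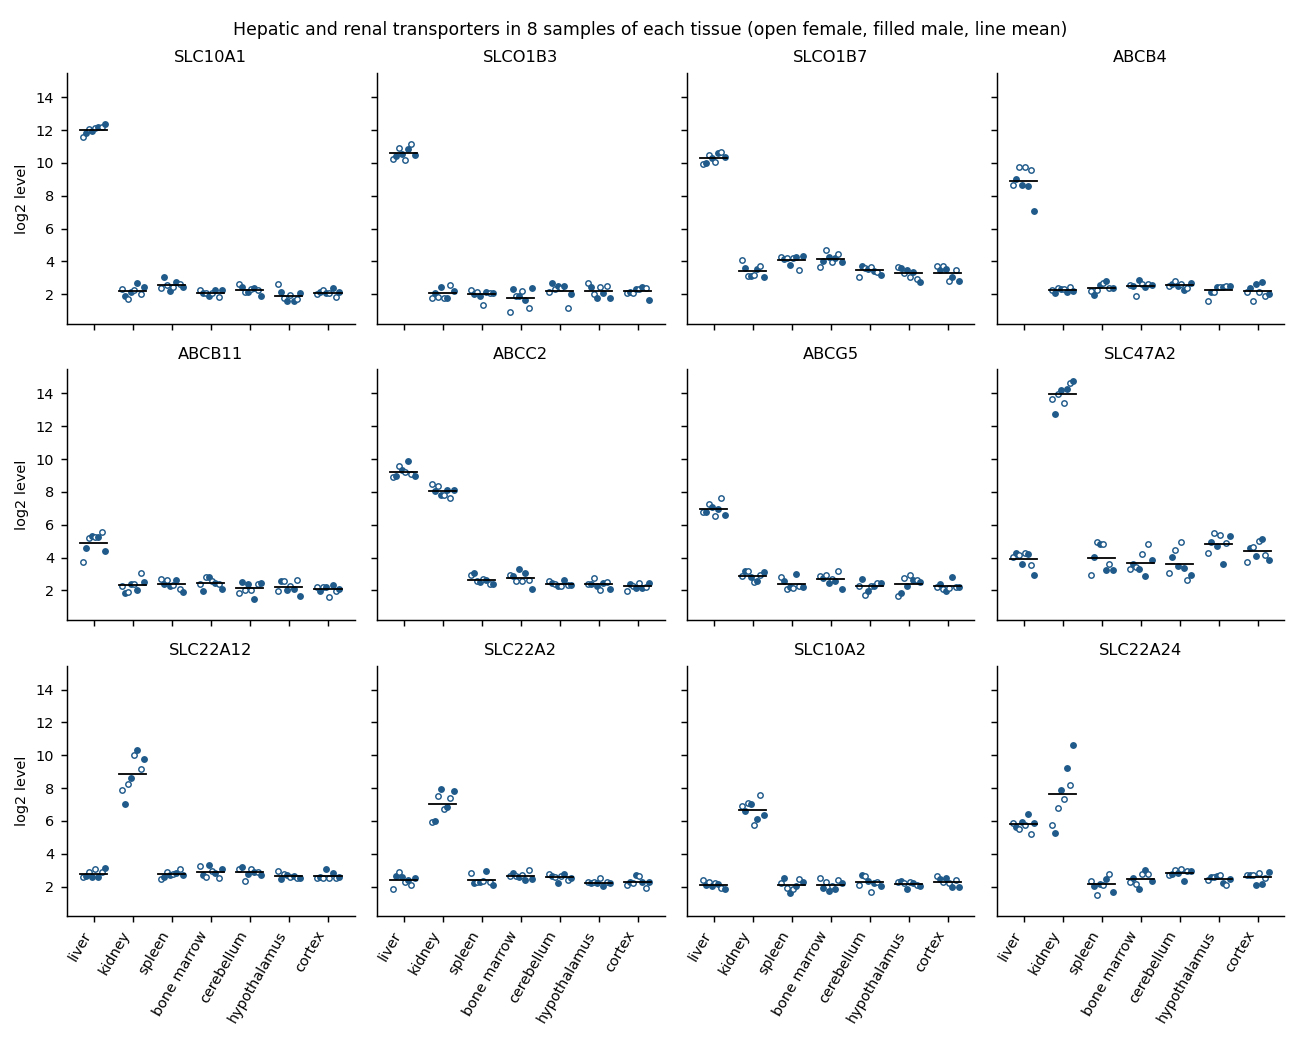
Levels of transporters of liver and kidney in each sample. The y axis is the log2 level, the x axis the tissue, each point 1 sample up to 4 months (8 per tissue, open for females and filled for males) and each line the tissue mean. SLC10A1 was at 11.56 or higher in every liver and at 3.04 or lower in the other 6 tissues, while ABCC2 was high in both liver and kidney.

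In kidney 8 of the 67 transporters were called, against 3.76% of all genes, and the median difference was -0.15 over the transporters and -0.07 over all genes. They held 3 of the 5 renal drug and urate genes found by the name rule. SLC47A2, a proton-coupled exporter that hands organic cations to the urine, lay between 12.76 and 14.77 in kidney (median 14.09) and between 2.61 and 5.48 in the other 6 tissues. Outside these it reached 6.56 in testis, 7.55 in ovary and 6.18 in the bone marrow of the 2-year male. All kidneys were above all other samples of the 7 tissues, by a mean of 9.91 log2 units (SE 0.23, adjusted p = 5.2e-37), or 960-fold. SLC22A12, the urate reabsorber URAT1, lay between 7.02 and 10.34 in kidney (median 8.88) and between 2.36 and 3.30 elsewhere (6.11 log2 units, SE 0.18, adjusted p = 1.2e-32). Of the 48 other samples 1 was well above background, so this difference too is set mostly against background signal. SLC22A2, which takes organic cations from blood into tubule cells, lay between 5.92 and 7.92 in kidney (median 7.11) and at no more than 3.04 elsewhere, at least 15.4-fold higher (adjusted p = 2.6e-31).

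Kidney also carried SLC10A2, the apical bile acid carrier of ileum and proximal tubule, at 5.75 to 7.57 (median 6.77). It was at or below 2.73 in every other sample, and kidney was at least 12.4-fold higher (adjusted p = 1.6e-35). The pair of bile acid carriers thus lay in separate organs, SLC10A1 in liver and SLC10A2 in kidney. SLC22A24 ranged widely in kidney, from 5.28 to 10.65 (median 7.59), was 5.21 to 6.41 in liver, and was called in both, by 4.60 (SE 0.27, adjusted p = 2.2e-20) and 2.43 log2 units (SE 0.27, adjusted p = 3.7e-11). Its 2 probes read alike in kidney, at 7.87 and 7.41, and not in liver, at 8.64 and 2.92. SLC22A4, a carrier of ergothioneine and carnitine, was 5.22 to 6.55 in kidney and differed by 2.27 log2 units (SE 0.33, adjusted p = 7.3e-08), with higher levels in bone marrow.

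The genes that make, sense and bind bile acids, and the regulators and partners of the transporters, were counted in the same contrasts. Of 14 bile acid synthesis and signalling genes on the array (20 listed) 9 were called in liver and 3 in kidney. Of 16 regulators and partners (18 listed) 9 were called in liver and 4 in kidney, beside the 4.58% and 3.76% of all genes given above. The genes not called in liver included CYP8B1, the sterol 12-alpha-hydroxylase (mean 3.17 there and 2.99 to 3.34 in the other 6 tissues), HSD3B7, another enzyme of bile acid synthesis (6.29 there and 5.51 to 6.38), FABP6, the ileal bile acid-binding protein (3.41 there), and the sterol receptor NR1H2 (3.55 there and 3.45 to 3.62). FABP6 was well above background in none of the 56 samples. In liver the called genes included CYP7A1, the rate-limiting enzyme of bile acid synthesis (4.48, SE 0.28), CYP27A1, a sterol hydroxylase (4.98, SE 0.16), NR0B2, the bile acid-responsive repressor SHP (7.61, SE 0.13), and NR1I2, the drug sensor PXR (3.27, SE 0.14). SLC51B, a subunit of the basolateral bile acid exporter, was called in liver (5.86, SE 0.14) and in kidney (7.40, SE 0.14). PDZK1, a scaffold that binds transporters at the apical membrane, was called in kidney (3.83, SE 0.10) and liver (2.54, SE 0.10).

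In bone marrow 4 of the 67 transporters were called, against 4.22% of all genes, a share near the background. These were SLC22A16, a carnitine transporter, with samples between 9.77 and 10.85 (5.51 log2 units higher, SE 0.54, adjusted p = 1.4e-12), SLC22A4, with 6.81 to 8.43 (4.01, SE 0.33, adjusted p = 5.7e-15), ABCB10, a mitochondrial transporter needed for haem synthesis, with 11.12 to 12.10 (3.41, SE 0.24, adjusted p = 2.2e-17), and ABCB6, a porphyrin transporter, with 12.44 to 13.42 (2.73, SE 0.30, adjusted p = 5.1e-11). All 4 overlapped the other tissues, because the spleens at 1 week were as high. In spleen 1 transporter was called, SLCO2B1, against 3.09% of all genes. It lay between 5.85 and 7.29 in spleen and differed by 2.01 log2 units (SE 0.13, adjusted p = 2e-18), and the mean in spleen, 6.66, was close to that in liver, 6.65. In 5 of the 8 fits that left out one age and sex it fell just under the fold limit: those without the female or the male samples of 4 weeks or of 4 months, and without the males of 2 months.

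The 3 brain regions together were compared with liver, kidney, spleen and bone marrow. Of the 67 transporters 3 were called, against 6.13% of all genes. ABCG4, which exports cholesterol from neurons and astrocytes to lipoproteins, was 8.35 to 9.82 in the 24 brain samples and at most 3.33 in the 32 others, so that brain was at least 58.5-fold higher (adjusted p = 8e-48). SLC22A17, a receptor for lipocalin 2 that is also called the brain-type organic cation transporter, was 13.66 to 14.72 in brain and 8.98 to 12.19 elsewhere (4.21, SE 0.13, adjusted p = 7.2e-32). SLC22A20 was 5.90 to 7.45 in brain and 3.79 to 5.07 elsewhere (2.14, SE 0.06, adjusted p = 6.8e-33), with one probe at 10.94 in cerebellum and the other at 2.54. All brain samples lay above all others for these 3 genes. A further row of the array for SLC22A20, outside the name rule, was not higher in brain. Its means were 2.91 to 3.12 in the brain regions and 2.84 to 3.47 in the other 4 tissues. It was well above background in 3 of the 72 tissue samples. ABCC2 was well above background in 0 of the 24 brain samples.

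Within the brain, each region was set against the mean of the other 2, and a change of at least 2-fold was called. In cerebellum 6 of 67 were called against 9.07% of all genes, 3 higher (4%) and 3 lower (5.07%). In cortex 4 were called against 4.9%, 3 higher (3.1%) and 1 lower (1.8%). In hypothalamus 1 was called, higher (2.82%), against 4.75%. SLCO1C1, which carries thyroxine across the blood-brain barrier and into astrocytes, divided all 3 regions. It was 6.14 to 7.28 in cortex (median 6.76), 2.94 to 5.08 in hypothalamus (median 4.10) and 1.72 to 2.89 in cerebellum (median 2.00), with no overlap between regions. Cortex was 3.64 log2 units above the others (SE 0.19, adjusted p = 3.3e-21) and cerebellum at least 4.95-fold below them (adjusted p = 5.5e-20).

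Of the remaining region calls, cerebellum was higher in SLC22A16 (5.21 to 7.04 against 3.21 to 4.33 in the other regions, adjusted p = 1.2e-03), ABCA9 (7.99 to 8.91 against 5.71 to 7.49, adjusted p = 6.2e-07) and ABCA7 (9.64 to 10.52 against 8.32 to 9.30, adjusted p = 3.5e-09). ABCA7 and ABCA9 belong to the ABCA class of lipid transporters. In none of these 3 genes did cerebellum overlap the other regions. Cerebellum was lower in ABCB9, a lysosomal peptide transporter, by at least 2.35-fold (adjusted p = 2e-14), and in SLC47A2 by 1.01 log2 units (SE 0.26, adjusted p = 9.4e-04). Cortex was higher in ABCA12, a lipid transporter known from skin (4.39 to 5.98 against 3.71 to 4.17), and in SLCO6A1, an organic anion transporter known from testis, by at least 1.80-fold, and lower in ABCA9 (-1.30, SE 0.26). Hypothalamus was higher in ABCA4, a retinoid transporter, by 1.05 log2 units (SE 0.23, adjusted p = 3.9e-04). Without the females of 4 months ABCA4 was no longer called there and no transporter was, without the females of 1 week SLC22A16 was called in its place, and without the males of 2 months SLC47A2 was called as well. In cerebellum SLC47A2 lost its call without the females or the males of 4 months, and SLC22A23 was called without the females of 4 weeks. In cortex ABCB9 was called without the females or the males of 1 week or the males of 4 weeks.

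To see whether transporter levels changed as the animals grew, samples of 2 and 4 months were compared with samples of 1 and 4 weeks within each tissue (4 against 4) by limma. In liver 0 of the 67 transporters passed, against 1.81% of all genes. At an unadjusted p under 0.05 there were 13 of 67, against 4189 of all 23722 genes. The smallest adjusted p of a transporter was 0.0556. SLC10A1 was 11.56 in the female and 11.80 in the male at 1 week, 12.06 and 11.95 at 4 weeks, 12.10 and 12.16 at 2 months, 12.16 and 12.38 at 4 months, and 12.10 in the 2-year male. The lowest values were those of 1 week, and later samples differed by little. ABCB4 was 8.67 and 9.04 at 1 week, 9.76 and 8.65 at 4 weeks, 9.76 and 8.60 at 2 months, 9.55 and 7.08 at 4 months, and 8.48 at 2 years, and from 4 weeks on each female was above the male of her age. Without the female of 4 weeks ABCB6 passed in liver, and without the female of 2 months ABCA9 did.

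A second comparison asked whether the later level was already reached at 1 week, by setting the 2 livers of 1 week against the 6 of 4 weeks to 4 months. It shares its samples with the age comparison. Of the 67 transporters 4 passed, against 1.85% of all genes. They were 3 higher at 1 week (1.37% of all genes) and 1 lower (0.481%). ABCB1 was lower at 1 week, at 8.67 in the female and 8.57 in the male, against 9.37 and 9.44 at 4 weeks, 9.70 and 9.46 at 2 months, and 9.43 and 9.46 at 4 months (-0.86, SE 0.15, adjusted p = 0.021). The 1-week livers lay below all later ones, and the 2-year male read 9.36. With slide as a covariate over the 56 samples the difference was -0.66 (adjusted p = 0.23). A further row of the array listed by an accession of ABCB1 differed by -0.58 (SE 0.19, adjusted p = 0.18).

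The 3 transporters that were higher in liver at 1 week were among the bone marrow genes. SLC22A16 had a mean of 7.12 at 1 week and 3.03 later (4.08, SE 0.19, adjusted p = 4.4e-06), SLC22A4 had 4.50 and 2.82 and was at least 2.10-fold higher at 1 week (adjusted p = 0.002), and ABCB10 had 9.62 and 8.63 (0.98, SE 0.20, adjusted p = 0.036). The mean over 6 erythroid genes in the same livers was 6.48 to 6.49 at 1 week and 3.92 to 4.45 later, and 4 of these 6 genes were higher at 1 week. The mean over 5 megakaryocyte and platelet genes was 5.06 to 5.25 at 1 week and 3.96 to 4.32 later, and 3 of these 5 were higher at 1 week. Both marker lists moved with these 3 transporters, and their part in the result was not tested. SLC22A16 alone passed when the male of 1 week was left out, and SLC22A16 and SLC22A4 when the female of 1 week was left out, which leaves 1 sample that is assumed to vary like the others. ABCB10 also lost its call without the female or the male of 2 months or the female of 4 months, and ABCA4 passed as well without the male of 4 weeks.

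Several other hepatic uptake and export genes had lower means at 1 week without passing the test. Over the 7 uptake genes the median difference was -0.21 and the highest 0.17. Over the 6 canalicular genes these were -0.35 and -0.04. The differences were -0.99 for ABCB11 (SE 0.30, adjusted p = 0.16), -0.45 for SLC10A1 (SE 0.17, adjusted p = 0.25), -0.42 for ABCC2 (adjusted p = 0.48) and -0.37 for SLCO1B3 (adjusted p = 0.56). The ABCB11 probes differed by -0.83 for the brighter and -1.14 for the one near background. The median over the 67 transporters was -0.15 and over all genes -0.03. Of the pathway genes 3 passed, all lower at 1 week. CYP7A1 was 4.07 and 4.06 at 1 week, 5.74 and 7.94 at 4 weeks, 8.82 and 9.26 at 2 months, 7.88 and 6.96 at 4 months and 9.23 at 2 years (-3.70, SE 0.74, adjusted p = 0.038). Every later liver was above the pair of 1 week. HNF4A, a master regulator of hepatocyte genes, differed by -1.87 (SE 0.39, adjusted p = 0.046) and CYP27A1 by -1.04 (SE 0.21, adjusted p = 0.043).

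In kidney 5 of the 67 transporters passed the age comparison, against 8.46% of all genes, a share near the background. Of these 3 were higher at 2 and 4 months (3.72% of all genes) and 2 were lower (4.74%). SLC22A12 was 7.88 in the female and 7.02 in the male at 1 week, 8.24 and 8.62 at 4 weeks, 10.01 and 10.34 at 2 months, 9.14 and 9.75 at 4 months, and 8.57 at 2 years. All older kidneys were above all younger ones, with the highest pair at 2 months, and the 2-year sample fell within the younger range. The difference was 1.87 log2 units (SE 0.35, adjusted p = 0.016), and both of its probes rose, by 1.94 and 1.80.

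SLC15A1, the intestinal and renal peptide carrier PEPT1, was 5.95 and 6.06 at 1 week, 6.05 and 6.16 at 4 weeks, 6.82 and 6.71 at 2 months, 6.37 and 7.14 at 4 months, and 6.51 at 2 years (0.70, SE 0.17, adjusted p = 0.033). SLC22A11, an organic anion and urate carrier, was 3.60 and 3.90, 3.81 and 3.86, 4.21 and 4.31, and 4.57 and 4.46 at the same 4 ages (0.59, SE 0.13, adjusted p = 0.029). For both genes the older kidneys did not overlap the younger ones, and the 2-year samples, at 6.51 and 4.15, lay outside the younger range. The probes of SLC15A1 rose unequally, by 1.17 for the brighter and 0.24 for the dimmer. The brighter read 8.86 in kidney and 7.83 to 8.77 in the other tissues, so it hardly sets kidney apart. The SLC22A11 probes rose by 0.50 and 0.68. They read 4.70 and 3.48 in kidney, against 5.04 and 3.52 in spleen and 4.91 and 3.81 in bone marrow.

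ABCB6 fell, from 11.84 in the female and 11.89 in the male at 1 week over 11.44 and 11.49 at 4 weeks and 10.86 and 10.69 at 2 months to 10.70 and 10.45 at 4 months, with 10.76 at 2 years (-0.99, SE 0.15, adjusted p = 0.0088). The groups did not overlap, and its 2 probes fell alike. With one spread estimated over the 56 samples its adjusted p was 0.13. SLCO5A1, an orphan of the organic anion transporter family, was 3.68 and 4.80, 4.26 and 3.80, 2.63 and 2.95, and 3.59 and 3.16, and 3.87 at 2 years (-1.05, SE 0.27, adjusted p = 0.043). Its probes fell unequally, by 1.74 for the brighter and 0.36 for the dimmer, which had a mean of 1.94 in kidney. The call was lost in 14 of 18 alternative fits.

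**Figure D3:**
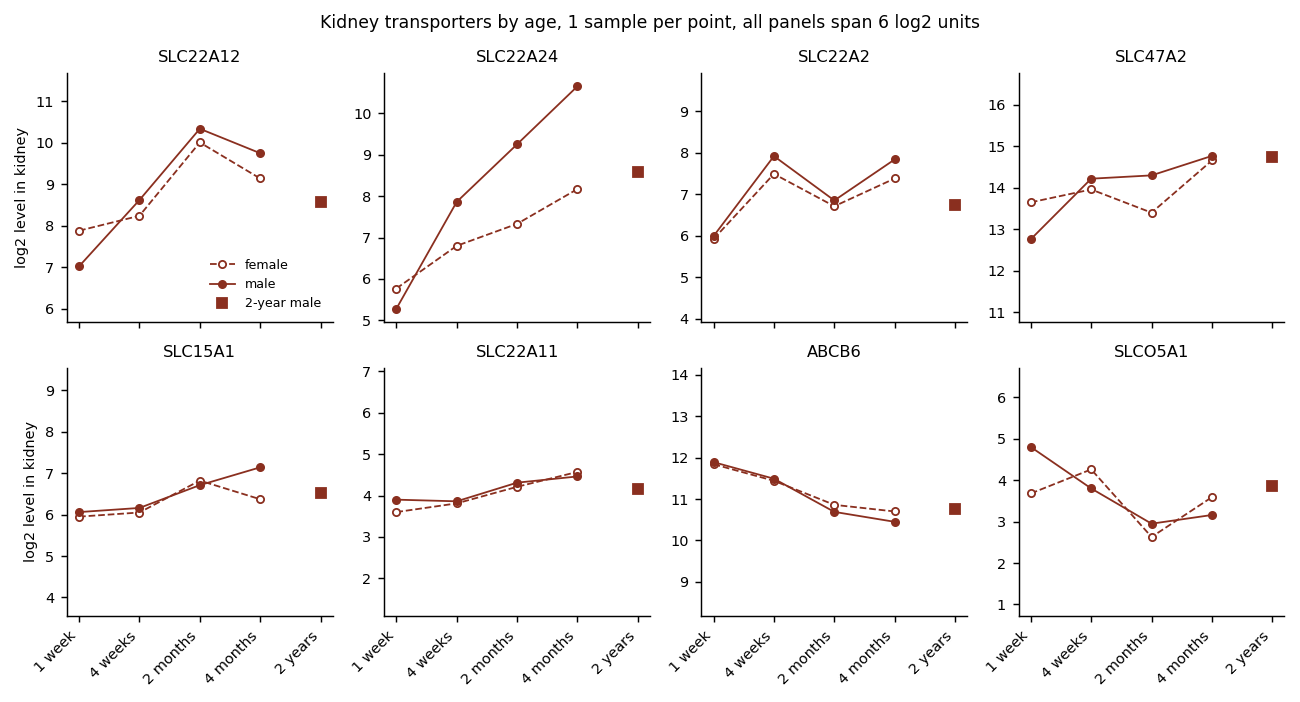
Kidney transporters by age. The y axis is the log2 level, with the same span in every panel, and the x axis the age. Open circles with dashed lines are females, filled circles with solid lines males and the square the 2-year male, 1 sample each, and the lines join different animals. SLC22A12 was 7.02 to 8.62 up to 4 weeks and 9.14 to 10.34 at 2 and 4 months, and ABCB6 fell from 11.44 to 11.89 to 10.45 to 10.86.

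Other kidney transporters varied with age without passing. SLC22A24 was 5.77 and 5.28 at 1 week, 6.80 and 7.86 at 4 weeks, 7.33 and 9.25 at 2 months, 8.17 and 10.65 at 4 months and 8.57 at 2 years, with the male above the female from 4 weeks on. Its difference was 2.42 (SE 0.72, adjusted p = 0.063). When the 2 kidneys of 1 week were set against the 6 later ones, 0 transporters passed, against 1.39% of all genes, with 15 at an unadjusted p under 0.05. The values nearest to passing included SLC22A2, at 5.92 and 5.99 at 1 week and 6.71 to 7.92 later (-1.41, SE 0.31, adjusted p = 0.059), and SLC22A12 (-1.90, SE 0.52, adjusted p = 0.092). SLC22A2 passed without the female of 2 months and SLC22A12 without the female of 4 weeks. SLC47A2 was 13.65 and 12.76 at 1 week, 13.96 and 14.22 at 4 weeks, 13.40 and 14.30 at 2 months, 14.66 and 14.77 at 4 months, and 14.75 at 2 years.

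The count of 5 in kidney depended on single samples. It was 1 without the female of 1 week, which left ABCB6. It was 2 without the male of 1 week, the female of 4 weeks, the male of 2 months or the male of 4 months, and 3 without the female of 2 months. It was 13 without the female of 4 months. ABCB6 passed in each of these fits and SLC22A12 in all but the first. The kidney of the 2-month male had traces of germ cell transcripts (PRM1, a sperm protamine, at 8.80), while testis transporters there were low (SLCO6A1 at 2.72).

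Cell markers of the kidney also moved. The proximal tubule mean was 8.72 to 9.62 in the younger and 9.14 to 9.80 in the older kidneys, that of the collecting duct 7.24 to 7.74 and 7.77 to 8.71, and that of podocytes 9.33 to 10.35 and 8.99 to 9.37. Of 7 proximal tubule genes 1 was higher, of 4 collecting duct genes 2 were higher and of 3 podocyte genes 1 was lower. Markers of B and T cells had a mean of 4.96 to 5.06 in the younger and 5.32 to 6.15 in the older kidneys, and 3 of 6 were higher. Of every other marker list at most 1 gene passed in either direction, among them 1 of 6 endothelial genes, lower, and 1 of 5 macrophage genes and 1 of 3 genes of the loop of Henle and distal tubule, higher. The part of these in the transporter changes was not tested. Of the pathway genes, HNF4A (2.33, SE 0.55, adjusted p = 0.033), the sterol receptor NR1H3 (0.88, SE 0.15, adjusted p = 0.013) and the apical scaffold SLC9A3R1 (0.82, SE 0.21, adjusted p = 0.045) were higher in the older kidneys. The oxysterol hydroxylases CYP7B1 (-1.58, SE 0.25, adjusted p = 0.0089) and CYP39A1 (-0.58, SE 0.15, adjusted p = 0.046) were lower. The age changes of liver and kidney were compared by an interaction term, for which 0 transporters passed, against 0.358% of all genes, with 7 at an unadjusted p under 0.05. For SLC22A12 the change in kidney exceeded that in liver by 1.64 (SE 0.41, adjusted p = 0.10), and it passed without the 4-month female kidney.

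In spleen 0 transporters passed, against 3.11% of all genes, with 11 at an unadjusted p under 0.05, although 4 of the transporters had the most negative differences of the 7 age comparisons there. SLC22A16 was 10.71 in the female and 10.77 in the male at 1 week, 3.81 and 6.28 at 4 weeks, 2.49 and 2.76 at 2 months, 2.16 and 2.65 at 4 months, and 2.79 at 2 years. The spleens of 1 week stood at the level of bone marrow and those of 2 and 4 months near the detection limit. ABCB6 was 13.21 and 13.18, 8.69 and 9.98, 8.26 and 8.56, and 8.22 and 8.44, with 8.72 at 2 years. ABCB10 was 11.98 and 12.00, 8.40 and 9.28, 7.56 and 8.21, and 8.22 and 7.94, and SLC22A4 was 7.51 and 7.46, 3.00 and 4.41, 2.52 and 2.59, and 2.90 and 2.96. In each gene the largest step lay between 1 and 4 weeks, inside the younger group of the test. The adjusted p was 0.077 for SLC22A16 and 0.12 to 0.13 for the other genes, and 5 transporters, these 4 and ABCC10, passed without the female of 4 weeks. The erythroid mean followed the same order, at 9.17 to 9.30 at 1 week, 5.63 to 6.58 at 4 weeks and 4.45 to 4.95 at 2 and 4 months, and 1 of its 6 genes passed the age test, lower in the older spleens. The mean over 5 megakaryocyte and platelet genes was 7.12 to 7.13 at 1 week, 6.68 to 7.27 at 4 weeks and 4.10 to 4.28 at 2 and 4 months, and 4 of these 5 genes were lower in the older spleens. The part of these cells in the differences was not tested.

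In bone marrow these genes stayed high from 1 week to 4 months and were lower in the 2-year male. SLC22A16 was 9.88 and 9.98, 10.66 and 10.63, 10.41 and 10.85, and 9.77 and 9.95 up to 4 months, and 6.13 at 2 years. ABCB6 was between 12.44 and 13.42 and then 9.44, ABCB10 between 11.12 and 12.10 and then 8.00, and SLC22A4 between 6.81 and 8.43 and then 3.84. Every one of the 8 younger marrows was above the 2-year sample, which had no replicate. Several marker means differed in that sample from the marrows up to 4 months. The erythroid mean was 3.73 (8.41 to 9.58 in the others) and the megakaryocyte and platelet mean 3.92 (7.47 to 8.92). The macrophage mean was 7.69 (8.43 to 9.63), while the endothelial mean was higher, at 8.09 (6.56 to 7.09). The part of these cells in the lower levels was not tested. In the age test of bone marrow 1 of 67 transporters passed, against 0.733% of all genes (0.637% higher with age). ABCB1 was 4.15 in the female and 4.86 in the male at 1 week, 4.88 and 4.40 at 4 weeks, 5.89 and 5.70 at 2 months, 6.51 and 5.77 at 4 months and 8.30 at 2 years (1.40, SE 0.24, adjusted p = 0.035). The older samples did not overlap the younger ones. The mean over 5 macrophage genes was 8.43 to 8.98 in the younger and 9.14 to 9.63 in the older marrows (1 of 5 genes higher), and that over 6 B and T cell genes 5.88 to 6.70 and 6.48 to 7.44 (1 of 6 higher), and their part in this rise was not tested. The call was lost in 11 of 18 alternative fits. It held without the 4-week female and without the 2-month male, where ABCA9 passed as well, and was lost without any one of the other 6 samples.

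**Figure D4:**
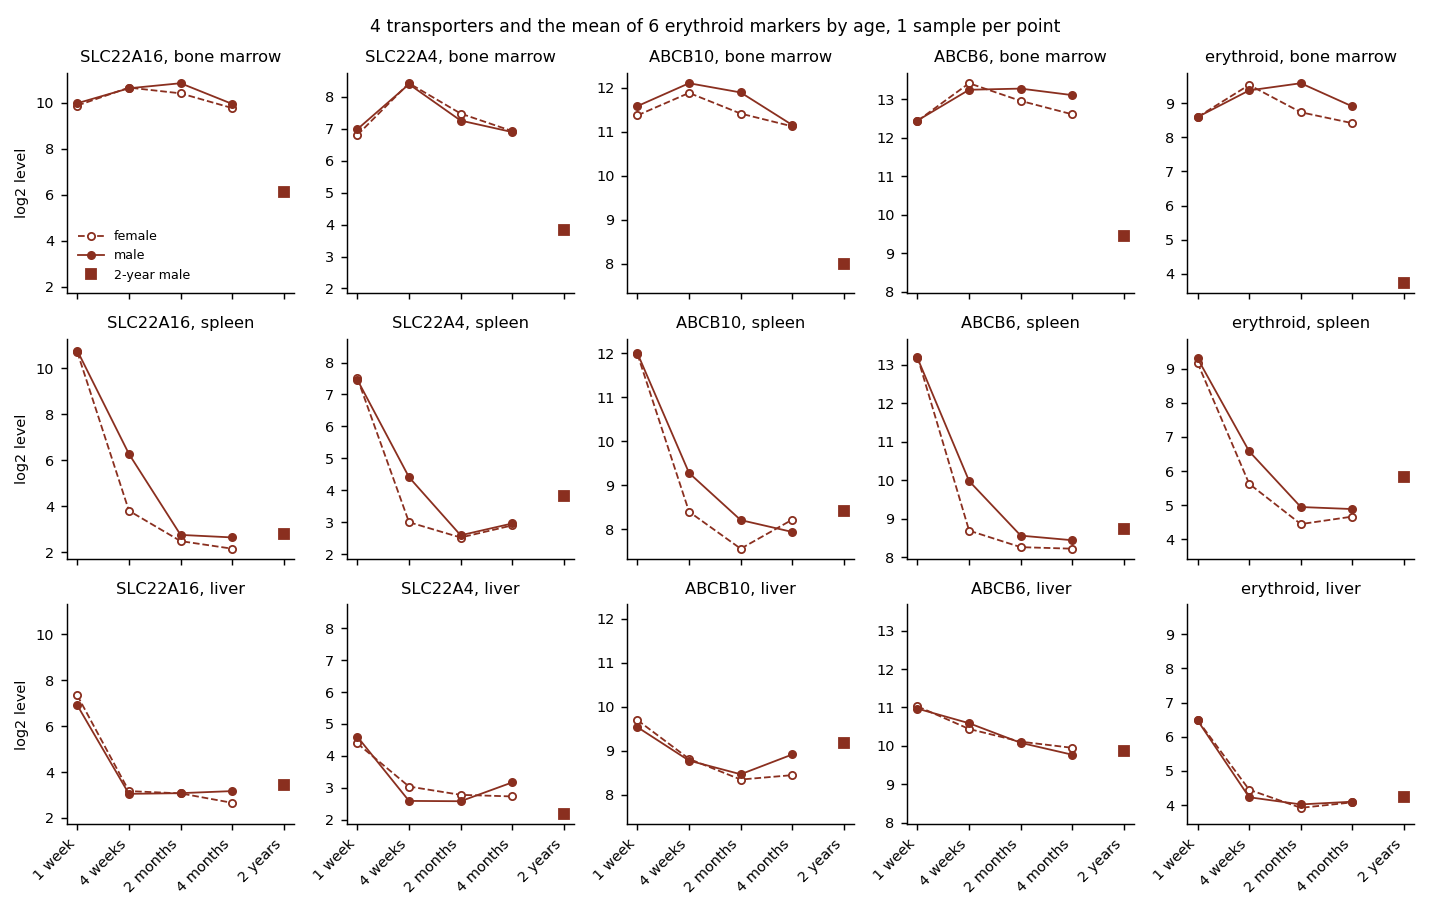
Transporters of the blood-forming tissues by age, with the mean of 6 erythroid genes. The y axis is the log2 level and the x axis the age, with rows for bone marrow, spleen and liver. Open circles are females, filled circles males and the square the 2-year male, 1 sample each. In spleen SLC22A16 was 10.71 and 10.77 at 1 week and 2.79 or lower at 2 months and after, and the erythroid mean was 9.17 to 9.30 and then 5.84 or lower.

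In the brain few transporters changed with age. In cortex 2 of 67 passed, against 1.77% of all genes, both lower in the older samples (0.809% of all genes). SLCO1C1 was 6.82 in the female and 7.14 in the male at 1 week, 7.28 and 7.10 at 4 weeks, 6.25 and 6.14 at 2 months, 6.25 and 6.69 at 4 months and 6.68 at 2 years (-0.75, SE 0.14, adjusted p = 0.039). ABCA12 was 5.98 and 5.72, 5.30 and 5.51, 4.99 and 4.73, and 4.84 and 4.39 up to 4 months, and 5.21 at 2 years (-0.89, SE 0.17, adjusted p = 0.038). Neither gene overlapped between the groups up to 4 months. Leaving out any one of the 8 cortices removed at least one of these calls: ABCA12 passed only without the 4-week female, SLCO1C1 in none of these fits, and SLCO1B7 without the 4-month female.

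In hypothalamus SLCO1C1 went the other way in its values, from 2.94 and 3.41 at 1 week and 3.84 and 4.40 at 4 weeks to 4.35 and 3.75 at 2 months and 4.82 and 5.08 at 4 months, with overlap and an adjusted p of 0.48 (0.85, SE 0.35). No transporter and no gene of the array (0%) passed there. The unadjusted p was under 0.05 for 8 of 67 transporters, against 2264 of all 23722 genes. In cerebellum 1 of 67 passed, against 2.29% of all genes (0.957% higher with age). ABCA7 was 9.92 in the female and 9.64 in the male at 1 week, 9.92 and 9.65 at 4 weeks, 10.51 and 10.32 at 2 months, 10.52 and 10.37 at 4 months and 10.06 at 2 years (0.65, SE 0.12, adjusted p = 0.029). The older samples were all above the younger. The call was lost without the male of 1 week or 4 weeks, the female of 2 months, or either sample of 4 months. Without the 2-month male SLC22A16 and SLC22A20 passed as well.

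Males were compared with females in 28 pairs matched for tissue and age. Of the 67 transporters 0 passed, against 0.253% of all genes. The unadjusted p was under 0.05 for 6, against 2036 of all 23722 genes. ABCG1, a cholesterol exporter, was nearest (0.33 higher in males, SE 0.08, adjusted p = 0.091), followed by ABCA4 (-0.44, SE 0.13, adjusted p = 0.21), and both passed without the samples of 4 weeks. Within liver 0 passed, against 0.0169%, and within kidney 0, against 0.0169%. The unadjusted p was under 0.05 for 5 transporters and 1606 of all genes in liver, and for 6 and 1344 in kidney. The largest differences in liver included ABCB4 (-1.10, SE 0.39, adjusted p = 0.73). SLC22A24 in kidney differed by 1.24 (SE 0.43, adjusted p = 0.81). At one age, sex and animal cannot be told apart.

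The testis samples, 1 per age and therefore without a test, were compared between 4 weeks and 2 months. Of the 67 transporters 5 differed by at least 4-fold, against 8.59% of all genes, 4 higher (7.03% of all genes) and 1 lower (1.56%). These shares were near the background, so the step does not set the transporters apart from other genes. From the youngest to the oldest testis SLCO6A1 was 4.80, 5.41, 9.67, 9.88 and 9.71. SLC22A14, a gene known from sperm, was 3.38, 3.04, 8.37, 6.94 and 8.23 in the same order, and SLC22A16 was 3.98, 3.89, 8.19, 9.12 and 8.18. SLC10A6, a carrier of sulphated steroids, was 3.01, 3.15, 6.82, 7.15 and 6.46. All 3 later testes were above both early ones for these 4 genes, with steps of 4.26, 5.33, 4.29 and 3.67 log2 units. The genes were picked by their rise from 4 weeks to 2 months, so a large step between these 2 samples follows from the choice. Only the testes of 1 week, 4 months and 2 years played no part in it. How many of all genes showed the same order was not counted.

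SLC22A17 was higher in the early testes, at 12.33 and 12.26 against 9.64, 9.72 and 9.09. The mean of germ cell markers went from 3.04 and 3.20 to 12.78, 12.43 and 12.74 and that of Sertoli cell markers from 8.72 and 7.93 to 5.92, 6.00 and 5.58, and their part in these steps was not tested. In the 4 ovaries SLCO6A1 lay between 2.87 and 3.71, SLC22A14 between 2.76 and 3.43 and SLC22A16 between 2.08 and 3.57. From the youngest to the oldest ovary ABCC2 was 7.56, 5.22, 7.18 and 4.27, and ABCB1 was 10.05, 8.38, 10.02 and 9.44. ABCC2 in testis had a mean of 2.44 up to 4 months.

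**Figure D5:**
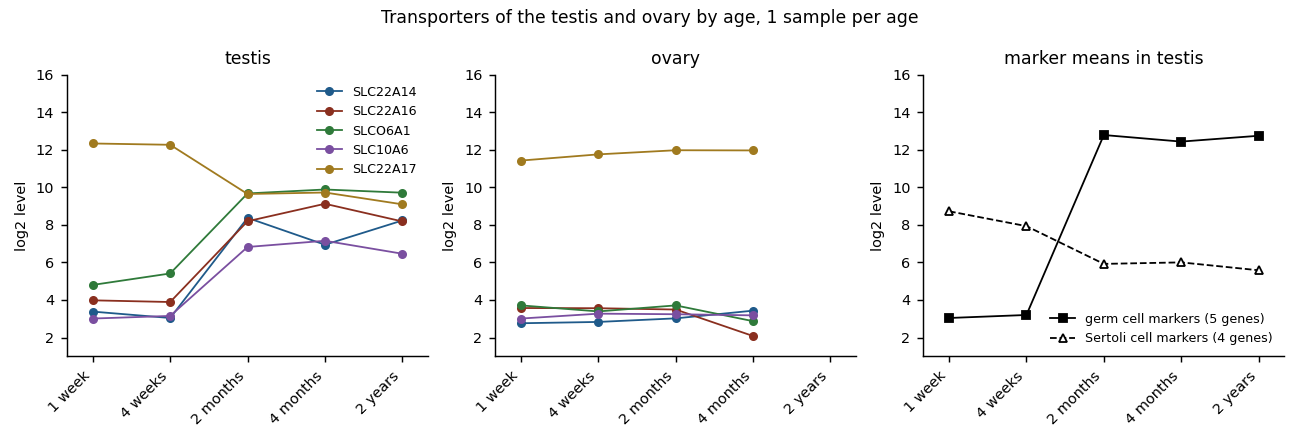
Transporters of testis and ovary by age. The y axis is the log2 level and the x axis the age, with 1 sample per point and no replicate, and the last panel gives the means of 5 germ cell and 4 Sertoli cell markers in testis. SLCO6A1, SLC22A14, SLC22A16 and SLC10A6 in testis were at 5.41 or lower up to 4 weeks and at 6.46 or higher from 2 months on, while SLC22A17 was 12.26 at 4 weeks and 9.64 at 2 months.

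The remaining role lists varied to different degrees. The ATP-binding proteins of translation, ABCE1, ABCF2 and ABCF3, do not transport. Averaged over their probes, they differed by at most 0.69 log2 units in any tissue contrast. For ABCF2 this average hides a split between its 4 probes. The brightest read 5.12 to 5.73 in the brain regions and 3.10 to 3.46 in the other 4 tissues, and the dimmest 2.31 to 2.83 in all 7. In testis, outside these contrasts, the brightest read 3.96 at 4 weeks and 7.87 at 2 months, in 1 sample each. The 5 SLC10 genes other than the bile acid carriers SLC10A1 and SLC10A2 included SLC10A3 (tissue means of 4.22 to 4.94) and SLC10A4 (6.00 to 6.49). Among 9 transporters of mitochondria, peroxisomes and lysosomes ABCD3, a peroxisomal importer of fatty acids, was highest in liver (9.10) and kidney (8.62), and ABCB8, a mitochondrial transporter, lay between 5.64 and 6.16 in all 7 tissues. The 12 lipid transporters of the ABCA and ABCG classes included ABCA1, a cholesterol exporter, at 9.83 in liver, 9.75 in spleen and 7.67 to 8.44 elsewhere. ABCA3, which fills lamellar bodies in lung, was 6.31 in kidney and 8.20 to 9.61 in the other tissues, and ABCA2 stayed between 6.91 and 7.44. These averages too hide splits between probes. For ABCA3 the brighter probe read 11.15 in cortex and 7.60 in bone marrow, the dimmer 8.06 and 9.40, and kidney was lowest in both. For ABCA2 the brighter probe was highest in liver (10.69, with 9.81 in cerebellum) and the dimmer in hypothalamus (4.75, with 3.76 in liver). None of the 12 was called in liver, kidney, spleen or bone marrow, and ABCG4 was called in brain.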

How the data were processed

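Total RNA of minipig tissues was hybridised by the authors to custom one-colour Agilent arrays of 60-mer probes, 62976 spots each. Per the labels, 4 samples had an RNA integrity number slightly under the limit. The deposited scanner files hold the spot intensity from Agilent Feature Extraction 11.5.1.1, before normalization. The series value table, deposited by the authors as log2 values, was used as an alternative only. It correlated with the log2 processed signals before normalization (r of 0.995 to 0.999 across spots per array, with very dim spots left out).

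From the 80 arrays the median spot intensity was background corrected (normexp, offset 0), spots marked as outliers were left out (103 to 733 per array), and arrays were quantile normalized and taken to log2. This forces one distribution on all tissues. Repeated spots were averaged, then probes, under the name in the files without its trailing number. Of 23736 genes 14 were dropped for missing values, which left 23722. The 8 repeat arrays of the 2-year kidney were averaged to 1 sample (median technical SD 0.115, transporters 0.133), and the renal pelvis array entered no comparison. The median gene spot intensity was 27 to 89 per array, so dim genes are imprecise, and no transporter was saturated. The number of arrays limits the precision.

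Age, sex, tissue and interaction contrasts were fitted over all genes with limma 3.58.1 in R 4.3.3 (lmFit and eBayes) and adjusted by Benjamini-Hochberg within each comparison at 0.05. All adjusted p-values are from limma. Tissue contrasts had a combined age and sex factor and a 4-fold limit (2-fold between brain regions), and sex contrasts were fitted within age or within tissue and age. The 2-year male entered no test. The scripts were tested on simulated data with known changes. Named genes were members of role lists (uptake, canalicular, renal, peptide, carnitine and others), members that passed an age, sex or interaction test, and the 3 largest called in each tissue. Members and lists were chosen with earlier results of these data known. Any other value was named after it was seen. Tested for all comparisons where they apply: another intensity column, offset 50, 75th percentile scaling, a filter on dim genes, the median of probes, the authors' values, sex as a block, one fit over 56 samples without and with slide (9 slides), the 2-year sample added, another fold limit, and each sample left out. The values of 1 transporter, which stays in the counts, are not reported here. Sequences of the probes and transporters were not used here.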

Additional observations from a re-analysis of the deposited data

Results flagged for a closer look

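In 308 groups (44 named transporters in 7 tissues, 8 samples each) 11 had a single sample far from the other 7 by Dixon's test, while chance marks about 5% of groups. ABCB4 in liver read 7.08 in the male of 4 months, with the next at 8.60 and the highest at 9.76. ABCF3 in bone marrow read 4.41 in the male of 2 months, with the next at 7.21, where one of its probes was far below the other. ABCA2 in the same sample read 7.70, the next being 7.40. SLCO5A1 was 5.07 in the bone marrow of the 1-week male (next 3.94) and 4.57 in the cortex of the 4-month female (next 3.52). SLC22A3 was 2.42 in the bone marrow of the 1-week male (next 3.06), and ABCA4 was 6.21 in the spleen of the 4-month female (next 5.32). In cortex SLC22A11 was 4.15 in the 2-month female (next 3.93) and SLC22A14 was 3.76 in the 4-month female (next 3.33). In cerebellum SLC22A15 was 5.95 in the 2-month male (next 5.47) and SLC22A9 was 3.98 in the 2-month female (next 4.19).

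The renal pelvis of the 2-year male, a single array used in no comparison, held 6 kidney transporters above its detection limit of 2.78. SLC47A2 was 11.60 there and 14.75 in the kidney of the 2-year male, SLC22A12 6.60 and 8.57, SLC22A24 7.11 and 8.57, SLC22A2 5.72 and 6.75, SLC10A2 5.32 and 6.53, and ABCC2 4.28 and 8.27. All 6 were lower in the pelvis than in the kidney, and this was not tested. They were picked from the transporters called in kidney, so their shared direction says nothing about transporters in general. No share over all genes was computed. The proximal tubule mean was 7.29 in the pelvis and 9.41 in the kidney of the 2-year male, and that of the collecting duct 8.37 and 8.21. The part of these cells was not tested.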

How the results depend on the processing

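Alternatives were computed for the counts and for single transporters that passed a test or came near it (adjusted p under 0.1 by age, at 1 week, by sex and for the interaction), and none of these changed direction. Other printed values were not recomputed. The number of transporters that passed moved as follows. With one spread estimated over the 56 samples the age counts were 3 in liver (from 0), 9 in kidney (from 5, of which 3 were shared), 10 in spleen (from 0), 3 in bone marrow (from 1) and 1 in cortex (from 2), and the 1-week counts were 11 in liver (from 4) and 8 in kidney (from 0). With slide as a covariate in addition they were 2 in liver, 8 in spleen, 2 in bone marrow, 0 in cerebellum (from 1) and 1 in cortex, and 8 and 7 at 1 week in liver and kidney, 2 for the hypothalamus contrast (from 1) and 2 for the interaction (from 0). An offset of 50 gave 2 in spleen, 0 in bone marrow and 4 in cortex by age, 1 in kidney at 1 week, 6 in liver (from 12), 4 in kidney (from 8) and 0 in spleen (from 1) by tissue, 3 in cerebellum (from 6), 0 in hypothalamus and 1 in cortex (from 4) by region, and 1 for the interaction. Scaling by the 75th percentile gave 2 in spleen, 0 in cerebellum and 0 in cortex by age, 0 in spleen by tissue and 2 in hypothalamus by region. Leaving out dim genes gave 1 in liver and 1 in spleen by age. The processed signal and the authors' values each gave 0 in bone marrow by age, 5 in brain (from 3) and 3 in hypothalamus, and the authors' values gave 1 for the interaction. With the 2-year sample the age counts were 2 in liver, 0 in bone marrow and 0 in cortex. An 8-fold limit gave 7 in liver and 0 in spleen, a 4-fold limit between regions 2 in cerebellum, 0 in hypothalamus and 1 in cortex, and a 2-fold limit 19 in testis (from 5). With sex as a replicate block the age counts in bone marrow and cortex were 0. Between the younger and older samples of one sex in a tissue, the correlation of their deviations lay between -0.21 and 0.29. These are different animals, so the values do not show whether tissues of one age and sex share an animal.

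Leaving out samples in turn gave 0 to 1 by age in liver, 1 to 13 in kidney, 0 to 5 in spleen, 0 to 2 in bone marrow, 0 to 3 in cerebellum, 0 to 0 in hypothalamus and 0 to 1 in cortex, 1 to 5 and 0 to 1 at 1 week in liver and kidney, 12 to 13 in liver, 8 to 8 in kidney, 0 to 1 in spleen, 4 to 4 in bone marrow and 3 to 3 in brain by tissue, 5 to 7 in cerebellum, 0 to 2 in hypothalamus and 4 to 5 in cortex by region, 0 to 2 by sex over all tissues, 0 to 0 in liver and in kidney, and 0 to 1 for the interaction. Samples that moved a count by over 1.5 times are named beside the result. Of the values of single named transporters 586 stayed on their side of the threshold, 74 lost and 33 gained a call under the settings, and 489, 61 and 14 when samples were left out. The cause of these moves was not tested. Signals near background limit what can be seen for dim genes.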

Other observations

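Another 13 rows of the array carry an accession and no symbol and belong to the same families by RefSeq names (3019 of 10818 accession rows had one). They stand outside the name rule and were looked up after the data were seen. SLCO4C1, a renal organic anion carrier, had a mean of 8.17 in kidney (4.39 above the other tissues, SE 0.17). SLC22A5, the main carnitine carrier, had 6.98 there (2.81). ABCC3, a basolateral exporter of conjugates, had 5.90 in liver (2.19), and SLC15A3, a lysosomal peptide carrier, 9.91 in spleen (3.30). ABCG2, a canalicular exporter, was not highest in liver. Its mean was 9.21 in liver, 10.46 in bone marrow, 10.28 in cerebellum and 8.83 in spleen, the lowest of the 7 tissues.

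Germ cell transcripts appeared in several samples outside the testis, with the highest levels in males. PRM1 was 9.80 in the cortex of the 4-month male and 8.80 in the kidney of the 2-month male, and the germ cell mean was 5.82 and 5.49 there. In these samples SLCO6A1 was 3.68 and 2.72, and SLC22A14 was 3.26 and 3.78. Both transporters were at or above 6.94 in the testes of 2 months and later.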
